A study of Homo sapiens with 8 samples.

Results

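The MYC network studied here comprises the activators MYC, MYCN and MYCL, their partner MAX, the antagonists MXI1, MXD1, MXD4 and MNT, and the alternative partner MLX. A probe set of the array belonged to it if its annotated symbol was exactly that of one of these 9 genes. This gave 18 probe sets of 8 genes, among 22215 probe sets and 11963 genes tested. The network's proteins are transcription factors that compete for one dimer partner and for the same DNA element, the E-box. MYC, MYCN and MYCL bind DNA only as dimers with MAX and mainly activate genes of growth, ribosome production and metabolism. MXI1, MXD1, MXD4 and MNT also dimerise with MAX, occupy E-boxes, and recruit the SIN3 and histone deacetylase corepressor, so they oppose MYC. MLX is an alternative partner, which pairs with MNT, MXD1, MXD4 and the glucose-sensing factors MLXIP and MLXIPL. MXI1 has been described in other human cells as a target of hypoxia-inducible factor 1 (HIF-1), and MYCN as a target of the PAX3-FOXO1 fusion protein of alveolar rhabdomyosarcoma.

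The network was followed in SJRH30, an established human alveolar rhabdomyosarcoma line, at 0 h, before hypoxia, and after 6, 12 and 24 h in 1% oxygen. Each of these 4 times had 2 arrays, described in the labels as biological replicates of the single line. All cells grew in RPMI medium with 10% serum and no other agent that the labels name. The arrays include no time-matched normoxic cells, so the effects of hypoxia and of time in culture cannot be told apart. The labels do not say whether replicates came from separate cultures, so the p-values measure the spread between these arrays, which may be technical.

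The 18 probe sets were 1 each for MYC, MXI1, MXD1 and MNT, 2 for MYCL, 3 for MYCN, 4 for MLX and 5 for MAX. MXD4 had 0 by this rule, because its 3 probe sets also carry the symbol of a second gene, and its level is not reported. No filter on low values was applied, so all 18 entered the fit. Probe sets of 1 gene share its transcripts and are not independent. In the manufacturer's naming, probe sets ending in _s_at can bind several related transcripts and those ending in _x_at can also bind unrelated ones. Values are log2 summaries made by RMA, and the brightness of one probe set cannot be set against that of another. A change is relative to the rest of the transcripts on an array, and fewer cells expressing a gene and less RNA per cell cannot be told apart.

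Replicate arrays correlated at 0.9970 to 0.9989 across probe sets, which are not independent replicates, and arrays of different times at 0.9933 to 0.9979. The 12 h replicates gave the 0.9970, and 12 h replicate 1 correlated more closely with all 4 arrays of 6 h and 24 h, at 0.9972 to 0.9979. Poly-A spike-in transcripts, read by 24 probe sets, averaged 8.34, 8.80, 8.76 and 8.98 at 0, 6, 12 and 24 h. Hybridisation controls, read by 18 probe sets, averaged 10.06, 10.31, 10.25 and 10.26. The labels call the cells muscle fibroblasts. At 0 h, on arrays with a median of 6.70 or 6.71, the muscle markers MYOD1, CHRNA1, FGFR4, MYOG, DES, CDH15 and PAX3 read 12.08, 11.54, 11.41, 9.89, 9.52, 9.40 and 7.77, and PAX7, MYF5 and MYF6 read 4.70, 4.12 and 4.05. The fibroblast markers COL3A1 and COL1A1 read 10.68 and 8.19, and the other 8, from LUM to POSTN, 6.60 to 3.67. Of these markers CDH15, MYOG, MYF5 and COL3A1 fell under the naming rule, and the rest were named after their values were seen. No detection call is given with the values. Averaged over 24 measured markers of fibroblasts, epithelium, endothelium and leukocytes, arrays read 5.66 to 5.71 at 0 h, 5.66 to 5.68 at 6 h, 5.77 to 5.82 at 12 h and 5.74 to 5.82 at 24 h. The markers called were COL3A1 (0.34) and TEK (0.31) at 6 h, COL3A1 (0.22) at 12 h, and TEK (0.37) and EPCAM (0.41) at 24 h, all higher. Leukocyte markers had none called by limma, with 1, 1 and 0 of 4 at an unadjusted p under 0.05, and the largest changes were those of CD79A (-0.28 at 6 h) and CD14 (0.24 at 12 h). Over 10 myogenic markers the arrays read 8.44 to 8.46, 8.38 to 8.45, 8.47 to 8.50 and 8.37 to 8.45 at 0, 6, 12 and 24 h. Of these MYF5 was higher at 12 h (0.35, limma adjusted p = 0.0314), MYOG higher at 24 h (0.31, 0.0222) and CDH15 lower at 24 h (-0.33, 0.0272). The part of these markers and controls in the results was not tested.

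Since hypoxia-inducible factors bind ACGTG or GCGTG, and the MYC network binds the E-box CACGTG, promoters of the antagonists that rose in hypoxia are shown first. RefSeq windows on GRCh38.p14 run from 250 bases before to 50 after an annotated start. They were read for 8 of the 9 listed genes, with MYC left out of the search, in 11 windows, 3 of them for MXI1, which has several starts. The windows below are written along the gene's own strand, with ACGTG and GCGTG on either strand in capitals (CACGT and CACGC when read on the opposite strand). The E-box CACGTG holds ACGTG on both strands.
MXI1 window 2, chr10:110209981-110210280, plus strand: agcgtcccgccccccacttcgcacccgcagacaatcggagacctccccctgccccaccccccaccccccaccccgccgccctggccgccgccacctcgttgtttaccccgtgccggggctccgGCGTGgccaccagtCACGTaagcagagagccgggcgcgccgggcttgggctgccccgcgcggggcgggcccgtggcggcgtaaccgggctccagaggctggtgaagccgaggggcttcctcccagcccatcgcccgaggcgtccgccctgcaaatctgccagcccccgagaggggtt
MXI1 window 3, chr10:110225746-110226045, plus strand: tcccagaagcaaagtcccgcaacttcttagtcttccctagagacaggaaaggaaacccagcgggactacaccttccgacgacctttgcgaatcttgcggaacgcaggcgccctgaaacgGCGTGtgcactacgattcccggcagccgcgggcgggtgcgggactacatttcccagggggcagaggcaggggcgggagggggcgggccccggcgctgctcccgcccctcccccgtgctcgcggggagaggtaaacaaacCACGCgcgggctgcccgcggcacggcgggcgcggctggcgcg
MNT window, chr17:2401011-2401310, minus strand: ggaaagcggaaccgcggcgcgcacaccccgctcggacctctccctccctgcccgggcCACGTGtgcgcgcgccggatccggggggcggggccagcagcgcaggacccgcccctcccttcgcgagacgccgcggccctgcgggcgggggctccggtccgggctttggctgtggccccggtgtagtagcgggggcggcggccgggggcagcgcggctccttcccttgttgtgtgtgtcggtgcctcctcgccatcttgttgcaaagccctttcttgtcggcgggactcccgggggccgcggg
Counted from the start, GCGTG begins at -127 in MXI1 window 2, and ACGTG lies on the opposite strand with its leftmost base at -113. Window 3 holds GCGTG at -131 and, on the opposite strand, at 9. MXI1 window 1, MAX window 1 and the MXD1 and MYCN windows hold neither. The MNT window holds the E-box CACGTG at -193, the MXD4 window at -238 and the MLX window at -50. The MLX window also holds GCGTG on the opposite strand, with its leftmost base at -42. MAX window 2 holds ACGTG at -22, and the MYCL window holds GCGTG at 34. ACGTG or GCGTG was in 7 of the 11 windows and in 48.4% of all 35116 windows, and CACGTG was in 3 of 11 and in 7.26% of all. A match describes these letters and is not a binding site, and the probe sets do not tell which MXI1 start was used.

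MXI1, a MAX-binding repressor, had the largest change of the network. Its probe set 202364_at read 8.48 and 8.42 at 0 h, 9.82 and 9.73 at 6 h, 10.00 and 10.00 at 12 h, and 10.06 and 10.04 at 24 h. Every hypoxic array lay more than a log2 unit above both arrays at 0 h, and most of the increase was present at 6 h. Its mean was 10.05 ± 0.01 at 24 h, against 8.45 ± 0.04 at 0 h (SD, n = 2 each). At 6, 12 and 24 h MXI1 was 2.51-fold, 2.92-fold and 3.02-fold higher than at 0 h. These correspond to log2 changes of 1.33 ± 0.06, 1.55 ± 0.06 and 1.59 ± 0.06 (SE; limma adjusted p = 4.33e-05, 1.34e-05 and 1e-05). Among the 22215 probe sets its change ranked 27, 29 and 33 from the largest rise at 6, 12 and 24 h. The later levels were close together. The difference of 24 h minus 6 h was 0.27 ± 0.06 and did not pass (limma adjusted p = 0.0791), but it passed without the dimmest 25% of probe sets (0.0416), without the dimmer 50% (0.011) and when the prior variance followed intensity (0.00493). That of 24 h minus 12 h was 0.05 ± 0.06 (limma adjusted p = 0.741).

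MNT, the broadly expressed antagonist of the family, also rose, by less. Probe set 204206_at read 8.19 and 8.18 at 0 h, 8.57 and 8.54 at 6 h, 8.71 and 8.66 at 12 h, and 8.58 and 8.47 at 24 h. No hypoxic array overlapped the 0 h arrays, and the highest values were at 12 h. Relative to 0 h, MNT rose 1.29-fold, 1.41-fold and 1.26-fold at 6, 12 and 24 h (log2 changes of 0.37, 0.50 and 0.34, each ± 0.06 SE; limma adjusted p = 0.0267, 0.00309 and 0.0113). The 12 h call held under every alternative run, with adjusted p up to 0.035 in limma. The 6 h call was lost without either array of 0 h or 6 h (adjusted p = 0.134 to 0.22 in limma), and the 24 h call without either array of 0 h (0.0767 and 0.0849), with values of 0.33 to 0.39.

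MXD1, an antagonist associated with terminal differentiation, was not called at any time. Probe set 206877_at read 5.07 and 5.01 at 0 h, 4.95 and 5.04 at 6 h, 4.93 and 5.15 at 12 h, and 4.85 and 5.05 at 24 h. The arrays of all 3 hypoxic times overlapped those of 0 h. Its changes were -0.05, 0.00 and -0.09 (each ± 0.10 SE; limma adjusted p = 0.873, 0.99 and 0.599). Its signal lay below the median of the arrays, and no detection call tells whether the transcript was measured.

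**Figure D1:**
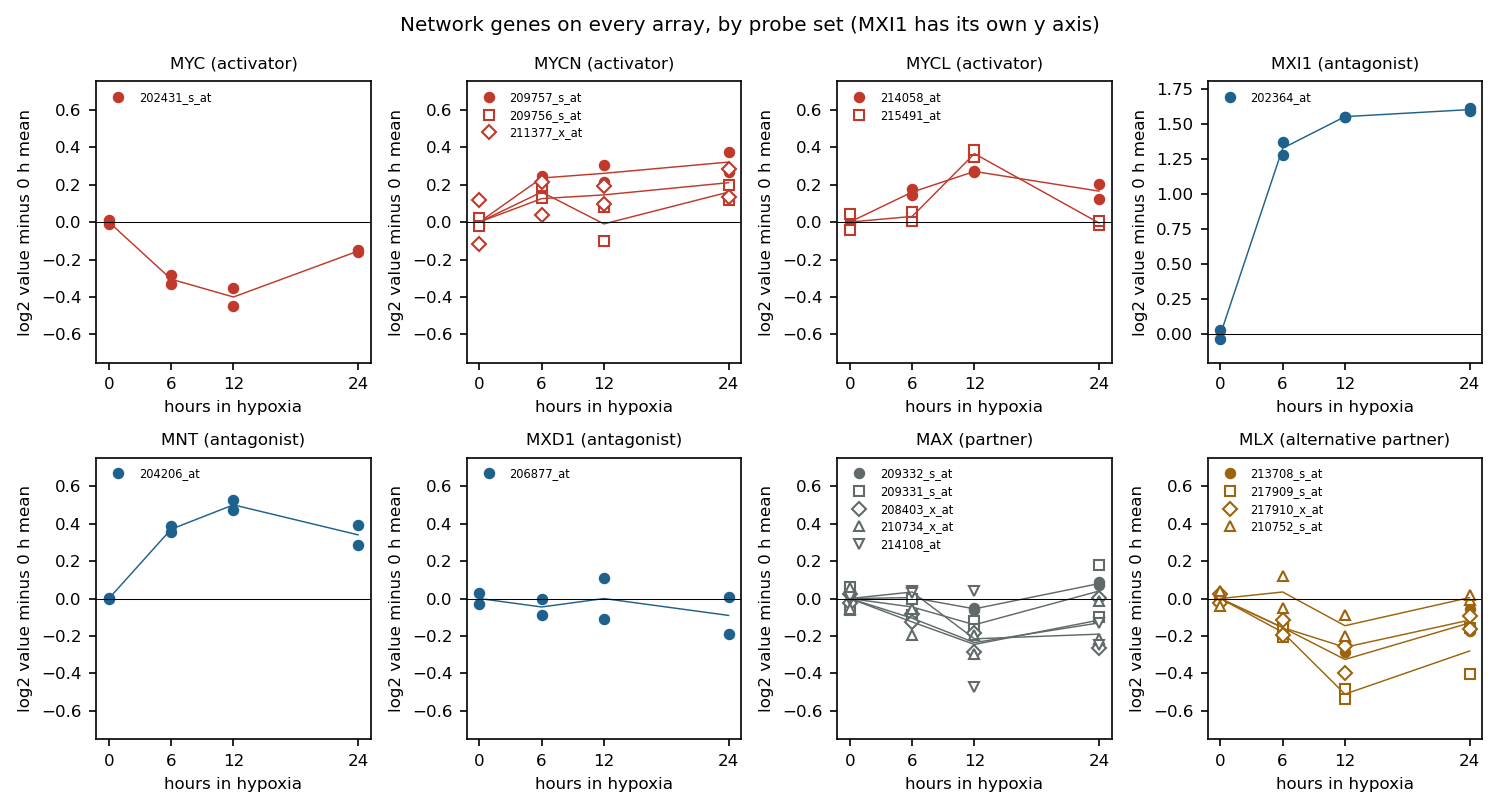
Log2 value minus the 0 h mean (y axis) against hours in hypoxia (x axis) for 8 network genes, 2 arrays per time as points and their mean as a line, with a symbol for each probe set. MXI1, on its own y axis, is higher by 1.33 to 1.59 at every hypoxic time, MYC is lowest at 12 h, and MNT is highest at 12 h.

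MYC, the most widely acting activator, fell at 6 and 12 h. Probe set 202431_s_at read 10.12 and 10.14 at 0 h, 9.80 and 9.85 at 6 h, 9.68 and 9.78 at 12 h, and 9.97 and 9.98 at 24 h. The values were lowest at 12 h and closer to 0 h at 24 h, with no overlap with 0 h at any time. MYC was 1.24-fold lower at 6 h and 1.32-fold lower at 12 h than at 0 h (log2 changes of -0.31 and -0.40, each ± 0.06 SE; limma adjusted p = 0.0457 and 0.00599). At 24 h the change was -0.16 ± 0.06 and did not pass (limma adjusted p = 0.13), although it passed without the dimmer 50% of probe sets (0.0363) and when the prior variance followed intensity (0.0302). The difference of 24 h minus 12 h, a comparison added after the values were seen, was 0.24 ± 0.06 and did not pass (limma adjusted p = 0.147), except under the same 2 settings (0.0321 and 0.0181). The 6 h call was close to the threshold and was lost without any 1 of the 6 arrays of 0, 6 and 24 h (limma adjusted p = 0.0585 to 0.288) and with each array centred on its median (0.0534). Without 0 h replicate 2 the 12 h value was -0.39 (limma adjusted p = 0.0573).

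MYCN and MYCL, the tissue-restricted activators, had probe sets called higher and none called lower. The brighter MYCN probe set, 209757_s_at, read 11.57 and 11.60 at 0 h, 11.81 and 11.83 at 6 h, 11.80 and 11.89 at 12 h, and 11.96 and 11.85 at 24 h. All hypoxic arrays were above those of 0 h. It rose by 0.26 at 12 h and 0.32 at 24 h (each ± 0.07 SE; limma adjusted p = 0.0366 and 0.0182) and was at 0.24 at 6 h (limma adjusted p = 0.12, but 0.0224 without the dimmer 50% of probe sets and 0.005 when the prior variance followed intensity). The other MYCN probe sets did not pass at any time: 209756_s_at was at 0.16, 0.00 and 0.16, and 211377_x_at at 0.13, 0.14 and 0.21 at 6, 12 and 24 h. The MYCN call at 12 h was lost without either array of 0 h, either of 6 h or replicate 2 of 12 h, and in a fit of only the arrays compared (limma adjusted p up to 0.177). The call at 24 h was lost without either array of 0 h or replicate 1 of 24 h (up to 0.119).

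For MYCL both probe sets passed at 12 h. Probe set 214058_at read 8.23 and 8.24 at 0 h, 8.38 and 8.41 at 6 h, 8.51 and 8.50 at 12 h, and 8.44 and 8.36 at 24 h. Probe set 215491_at read 6.67 and 6.58 at 0 h, 6.63 and 6.68 at 6 h, 6.97 and 7.01 at 12 h, and 6.61 and 6.63 at 24 h. In the first the hypoxic arrays were all above 0 h, and in the second those of 12 h alone stood apart. The rises at 12 h were 0.27 ± 0.06 and 0.37 ± 0.06 (SE; limma adjusted p = 0.0188 and 0.00793). At 24 h the changes were 0.17 and -0.01 (limma adjusted p = 0.0953 and 0.958). Without the dimmer 50% of probe sets 214058_at was also called at 6 h and 24 h (0.0466 and 0.0223). The call of 214058_at was lost without either array of 0 h or 12 h (limma adjusted p up to 0.112) and that of 215491_at without 0 h replicate 2 (0.0751).

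MAX, the shared partner, had 0 of 5 probe sets called by limma, with 2 at an unadjusted p under 0.05 at 12 h and 0 at 6 and 24 h. The brightest, 209332_s_at, read 9.74 and 9.70 at 0 h, 9.73 and 9.72 at 6 h, 9.66 and 9.67 at 12 h, and 9.81 and 9.79 at 24 h. Its changes were 0.00, -0.06 and 0.08 (each ± 0.05 SE; limma adjusted p = 0.998, 0.501 and 0.422). The other 4 lay between -0.24 and -0.14 at 12 h. The 2 were 208403_x_at and 210734_x_at, with limma adjusted p = 0.126 and 0.108. The dimmest, 214108_at, read 5.38 and 4.87 at 12 h, against 5.33 and 5.35 at 0 h, and its change of -0.22 became -0.47 without 12 h replicate 1 (limma adjusted p = 0.0102). Calls of the 2 _x_at probe sets at 12 h also appeared without the dimmer 50% of probe sets (0.0417 and 0.0327), and that of 208403_x_at without either array of 24 h (0.0431 each).

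MLX, the alternative partner, was lower at 12 h in 3 of 4 probe sets. Probe set 217909_s_at read 9.30 and 9.29 at 0 h, 9.09 and 9.14 at 6 h, 8.76 and 8.81 at 12 h, and 8.89 and 9.14 at 24 h. Probe set 213708_s_at, the brightest, read 9.99 and 10.02 at 0 h, 9.83 and 9.87 at 6 h, 9.77 and 9.72 at 12 h, and 9.83 and 9.95 at 24 h. Both were lowest at 12 h, and neither overlapped 0 h at any time. At 12 h 217909_s_at fell by 0.51, 217910_x_at by 0.32 and 213708_s_at by 0.25 (limma adjusted p = 0.00885, 0.0237 and 0.0343), while 210752_s_at was at -0.15 (0.237). None of the 4 passed at 6 h or 24 h, where 217909_s_at was at -0.18 and -0.28 (limma adjusted p = 0.351 and 0.0715) and 213708_s_at alone had an unadjusted p under 0.05 at 6 h and 217909_s_at alone at 24 h. At 24 h 217909_s_at was called without the dimmest 25% of probe sets (limma adjusted p = 0.0453), without the dimmer 50% (0.0162), when the prior variance followed intensity (0.0108), and, at -0.41, without 24 h replicate 2 (0.0178). Its call at 12 h was lost without either array of 0 h (up to 0.0655). Those of 217910_x_at and 213708_s_at were lost in a fit of only the arrays compared and without several single arrays (up to 0.144 and 0.178), and that of 213708_s_at also after quantile normalization.

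The values at 12 h had a narrower spread than at the other times, with interquartile ranges of 3.68 and 3.63 against 3.77 to 3.81. Between 12 h and 0 h the dimmest 25% of probe sets had a median change of 0.06 and the brightest 25% of -0.05. After quantile normalization of the arrays, both MYCL probe sets, 217909_s_at and 217910_x_at of MLX, MYC and MNT were still called at 12 h. MYC was at -0.37 and MNT at 0.56 there, and the part of the shift in the remaining changes was not tested.

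**Figure D2:**
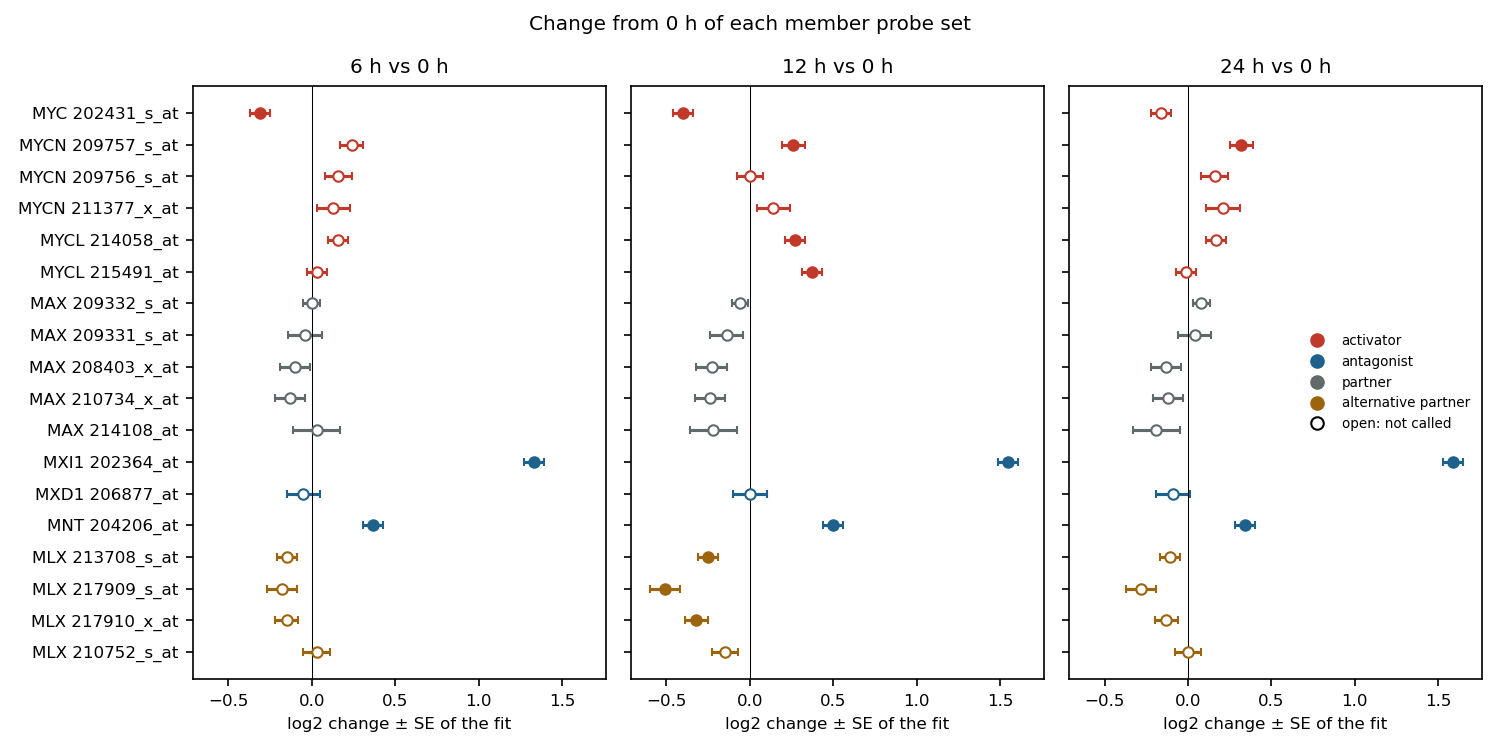
Log2 change from 0 h (x axis, with the standard error of the limma fit) of each of 18 probe sets (rows) at 6, 12 and 24 h, coloured by role, filled where called at an adjusted p under 0.05. MXI1 lies far to the right at all times, and 3, 9 and 3 probe sets are filled.

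Across the network 3 of 18 probe sets were called at 6 h, MXI1 and MNT higher and MYC lower. Of all 22215 probe sets 2.7% were called at 6 h, 1.85% higher and 0.855% lower. At 12 h 9 were called, 5 higher and 4 lower, beside 16.2% of all, 6.36% higher and 9.85% lower. At 24 h 3 were called, all higher (MXI1, MNT and MYCN), beside 14.7% of all, 6.86% higher and 7.8% lower. An unadjusted p under 0.05 in limma was found there for 6 of 18, and for 6366 of all 22215. Thus the share of 16.7% at 24 h was near the background, and those of 16.7% at 6 h and 50.0% at 12 h were above it. At 12 h MLX gave 3 of the calls and MYCL 2, and probe sets of 1 gene are not independent. With 1 probe set per gene limma called 6 of the 8 genes at 12 h, beside 2202 of all 11963. Replicates of 12 probe sets at 6 h, 14 at 12 h and 12 at 24 h did not overlap with 0 h, where all probe sets gave 53.6%, 61.6% and 57.6%. The median change of the 18 was 0.02, -0.10 and 0.00 at 6, 12 and 24 h, and that of all probe sets -0.02, 0.00 and -0.02. These counts lean on single arrays. Counts over all probe sets also fell at each time when either array of 0 h was left out, so the loss is not particular to the members. Without any 1 of the 0 h or 6 h arrays the count at 6 h was 1, MXI1. Without 0 h replicate 1 or 2 the count at 12 h was 4 or 2, and without 12 h replicate 2 it was 5. Without 0 h replicate 1 or 2 the count at 24 h was 1. Between 24 h and 6 h limma called 0 of 18, beside 1.48% of all probe sets. At an unadjusted p under 0.05 there were 2 of 18, and 3765 of all 22215. The steps from 6 to 12 h and from 12 to 24 h were added after the values were seen. They also had 0 of 18 called in limma, beside 0.117% and 0.144% of all probe sets. At an unadjusted p under 0.05 these steps had 5 and 6 of 18, and 4647 and 3653 of all 22215. MYCL 215491_at came nearest, at 0.34 from 6 to 12 h (limma adjusted p = 0.0819) and -0.37 from 12 to 24 h (0.0632). Both steps passed without the dimmest 25% of probe sets (limma adjusted p = 0.0429 and 0.0313) and without the dimmer 50% (0.0091 and 0.00642). They also passed when the prior variance followed intensity (0.0386 and 0.0328). Under the last 2 settings MXI1 (0.0288 and 0.0223) and MLX 217909_s_at (0.0275 and 0.0175) passed from 6 to 12 h.

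Antagonists were set against activators within each array, as the difference in log2 between probe sets, whose change with time can be read although its absolute size cannot. MXI1 minus MYC, relative to its 0 h mean, was 0.04 and -0.04 at 0 h, 1.70 and 1.57 at 6 h, 2.0 and 1.90 at 12 h, and 1.77 and 1.74 at 24 h. The ratio of MXI1 to MYC signal was thus 3.10, 3.86 and 3.37 times that of 0 h at 6, 12 and 24 h, with the highest values at 12 h. MNT minus MYC was 0.68, 0.90 and 0.50 on average, and MXD1 minus MYC 0.26, 0.40 and 0.07. MXD1 itself changed by -0.05, 0.00 and -0.09, so its difference reflects the lower MYC values. MYCN minus MYC was 0.54, 0.66 and 0.48, a shift between activators. Each antagonist thus gained less against MYCN than against MYC. The mean of MXI1, MXD1 and MNT minus the mean of MYC, MYCN and MYCL, each by its brightest probe set, stood 0.52, 0.64 and 0.50 above 0 h. Without MXI1, a setting added after the values were seen, it stood at 0.13, 0.20 and 0.01. These differences are descriptions with no test.

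**Figure D3:**
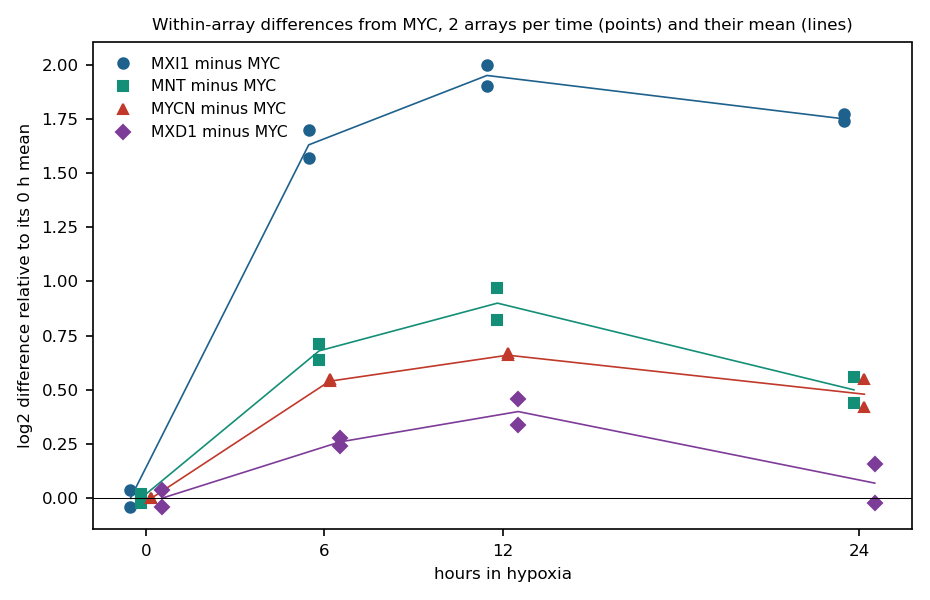
Log2 difference between a gene and MYC on the same array, relative to its 0 h mean (y axis), against hours in hypoxia (x axis, points of the 4 differences set slightly apart), with 2 arrays per time as points and their mean as a line. MXI1 minus MYC is 1.57 to 2.0 on the hypoxic arrays, MNT minus MYC 0.44 to 0.97.

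The genes whose pattern was most like MXI1 over the 8 arrays were INSIG2, a brake on sterol synthesis, BNIP3, a mitophagy receptor, NFIL3, a basic leucine zipper repressor, PDK1, which inhibits pyruvate dehydrogenase, and PDZRN3. Their Pearson r with MXI1 was 0.998 or 0.999. The 0 h and hypoxic arrays form separate groups for these genes, and over the 6 hypoxic arrays alone r was 0.93 to 0.98. At 24 h their log2 changes were 2.05, 3.34, 0.85, 2.42 and 0.44. For MYC the nearest were UBXN4, DUSP14, a dual-specificity phosphatase, PKP4, SPOP, a ubiquitin ligase adaptor, and MED8, a Mediator subunit, with r of 0.972 to 0.979 over 8 arrays and 0.94 to 0.99 over the 6 hypoxic ones. All 5 were lowest at 12 h, from -0.48 in DUSP14 to -0.14 in SPOP. The arrays share normalization, and the genes were picked as the highest of all, so these r are descriptions. The time courses shared with MXI1 or MYC, such as the low at 12 h, follow from that choice.

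Other genes around the network were read by the brightest probe set of each gene, for which 1.95% of 11963 genes were called higher and 0.878% lower at 6 h, 6.55% and 10.3% at 12 h, and 7.86% and 8.02% at 24 h. The median change of all these genes was -0.02, 0.00 and -0.01. An unadjusted p under 0.05 in limma was found for 2168, 3841 and 3614 of the 11963 at 6, 12 and 24 h. Of genes that MYC activates, 30 of 36 were measured. At 6 h 0 were higher and 2 lower in limma (11 at an unadjusted p under 0.05), at 12 h 1 higher and 10 lower, and at 24 h 2 higher and 10 lower. Their medians were -0.02, -0.09 and -0.08. NIP7, a ribosome biogenesis factor, fell by 0.37, 0.76 and 0.31 at 6, 12 and 24 h. CDC25A, a cell cycle phosphatase, was the second called at 6 h (-0.35) and was named after its values were seen. SRM, spermidine synthase, fell by 0.72 and 0.51 at 12 and 24 h, MRTO4, a ribosome assembly factor, by 0.60 and 0.44, and DDX21, a nucleolar helicase, by 0.46 and 0.51 (limma adjusted p = 0.00119 to 0.0287 over these calls at 12 and 24 h). The list's genes called higher were the transferrin receptor gene TFRC at 12 h (0.25) and the nucleolar methyltransferase gene FBL (0.32) and the purine synthesis gene PAICS (0.21) at 24 h, named after their values were seen. One gene counted as lower at 12 h, NOP16, also named after its values were seen, had another probe set called lower (-0.63) and 1 called higher (0.36) there, beside -0.41 in the one counted. Most of the list did not pass, among them NCL (0.09, 0.03 and 0.00) and NPM1 (0.03, -0.01 and -0.05), the nucleolar proteins, also named afterwards.

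Genes described as repressed by MYC did not move one way. Of 14 measured among 17, 2 were higher and 2 lower at 6 h, 2 and 4 at 12 h, and 2 and 2 at 24 h, with medians of -0.02, 0.06 and -0.01. NDRG1, a stress-responsive gene also induced by hypoxia, rose by 0.59, 1.00 and 1.00, and BTG1, an antiproliferative gene, by 0.53, 0.54 and 0.66. DDIT3, a stress transcription factor, fell by 0.63, 0.74 and 0.64. GADD45A, a growth arrest gene, fell by 0.54 and 0.29 at 12 and 24 h and was at -0.36 at 6 h (limma adjusted p = 0.0572). The others called lower, named after their values were seen, were the cell cycle inhibitor gene CDKN1A at 6 and 12 h (-0.45 and -0.41) and the cyclin gene CCND1 at 12 h (-0.43).

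Of 7 genes that both MYC and HIF-1 activate, 5, 6 and 6 were higher at 6, 12 and 24 h and 0 lower in limma (6 at an unadjusted p under 0.05 at each time), with medians of 1.87, 1.81 and 1.71. PDK1 (2.05, 2.32 and 2.42), the glucose transporter gene SLC2A1 (2.0, 2.04 and 1.98), VEGFA (1.90, 1.93 and 1.84) and the hexokinase gene HK2 (1.87, 1.81 and 1.71) led them. A second HK2 probe set, 222305_at, was called lower at 12 and 24 h (-0.36 and -0.37). Named after their values were seen, the enolase gene ENO1 was at 0.19 at 6 h and rose by 0.57 and 0.75 at 12 and 24 h, and the pyruvate kinase gene PKM did not pass at any time (-0.12, -0.04 and -0.02). Of the 5 measured among 6 targets of the MLX branch, limma called 0 at 6 h, with 1 at an unadjusted p under 0.05, and 1 at 12 and at 24 h. This was TXNIP, an inhibitor of glucose uptake, which rose by 0.54 and 0.88 after -0.26 at 6 h (limma adjusted p = 0.0588).

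The corepressor that MXI1 and MNT recruit was represented by 13 of 18 genes, of which 2, 3 and 4 were higher and 0, 1 and 0 lower in limma at 6, 12 and 24 h (5, 7 and 5 at an unadjusted p under 0.05). Their medians were 0.04, 0.01 and 0.06. SAP30, a SIN3 subunit, rose by 0.84, 0.82 and 0.72 (± 0.07 SE; limma adjusted p = 0.0013, 0.000688 and 0.000903), and the histone demethylase gene KDM5B by 0.52, 0.67 and 0.63. SIN3B, the scaffold, rose by 0.36 at 12 h alone and was at 0.13 and 0.17 at 6 and 24 h. ING1, a chromatin reader, rose by 0.37 at 24 h. ING2, of the same family, was the remaining one called higher at 24 h (0.34) and SAP18 the 1 lower at 12 h (-0.22), both named after their values were seen. The deacetylase genes HDAC1 (-0.10, -0.14 and 0.06) and HDAC2 (-0.03, -0.10 and -0.10), named after their values were seen, did not pass.

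Among 26 of 34 measured partners and turnover factors of MYC, 1 was higher at each time and 1, 6 and 3 were lower at 6, 12 and 24 h, with medians of -0.05, -0.12 and -0.14. The 1 higher was AURKA, a mitotic kinase that stabilises MYCN protein, at 0.32, 0.24 and 0.23 (limma adjusted p = 0.0354, 0.0284 and 0.0365). GSK3B, the kinase that marks MYC for degradation, fell by 0.42 and 0.36 at 12 and 24 h and was at -0.30 at 6 h (limma adjusted p = 0.0717). At 12 h the acetyltransferase gene KAT5 fell by 0.38 and the elongation kinase gene CDK9 by 0.31. SMARCB1, a subunit of the SWI/SNF remodeller, was the 1 lower at 6 h and was lower at every time (-0.29, -0.24 and -0.27), and the chromatin reader gene BPTF was lower at 24 h (-0.24), both named after their values were seen. The remaining network genes MXD3, MGA, MLXIP and MLXIPL had 0 of 4 called in limma at any time, with 1, 0 and 1 at an unadjusted p under 0.05 at 6, 12 and 24 h. MXD3, an antagonist of cycling cells, was at 0.24, 0.20 and 0.30 (± 0.10 SE; limma adjusted p = 0.285, 0.231 and 0.106), and MLXIP at 0.06, 0.10 and 0.00.

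**Figure D4:**
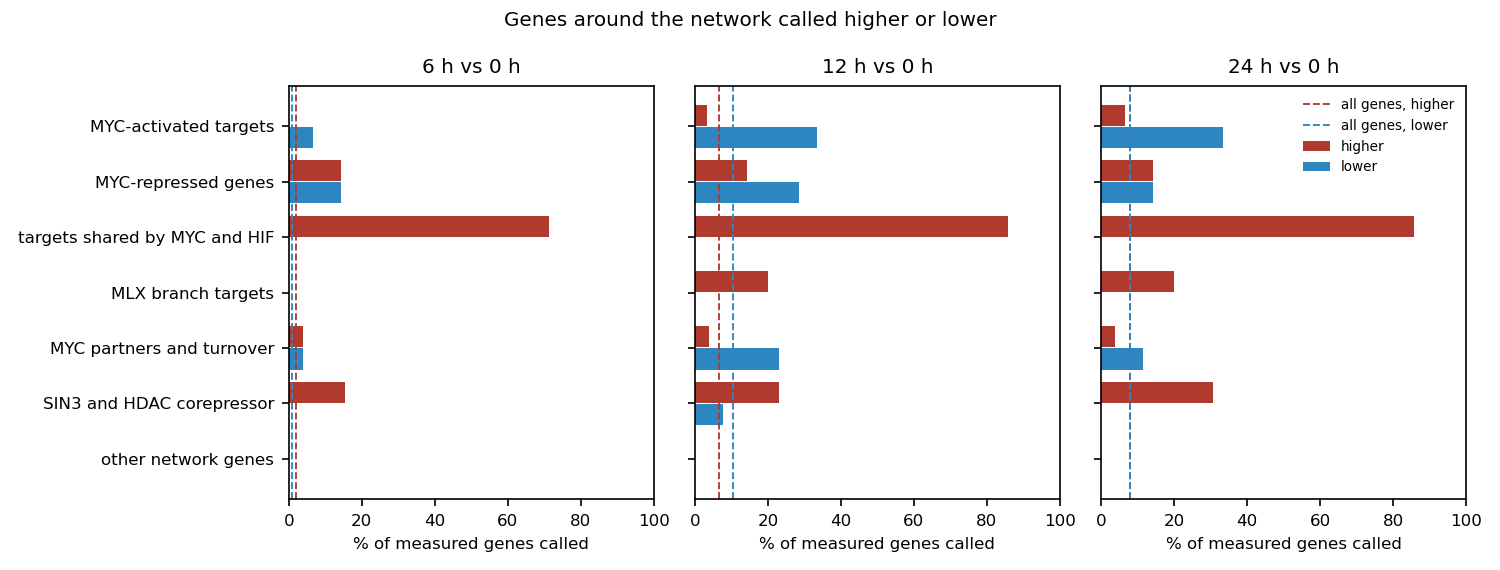
Percentage of measured genes of each list (rows) called higher (red) or lower (blue) than at 0 h (x axis, from 0) at 6, 12 and 24 h, with dashed lines for all 11963 genes, which nearly coincide at 24 h (7.86% and 8.02%). Of the targets that MYC shares with HIF 5, 6 and 6 of 7 were higher, and 10 of 30 MYC-activated targets were lower at 12 h and 10 of 30 at 24 h.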

How the data were processed

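RNA from SJRH30 cells, with 2 arrays per time, was amplified once and hybridised to a 3′ Affymetrix array. The deposited log2 values are RMA summaries by the authors, per the submitters' processing notes, with the version not given in the sources used here. RMA in its usual form equalises arrays, so differences in total messenger RNA are lost. Depth has no meaning for arrays, and their number limits the precision. Names came from the platform annotation of the array and, by Entrez identifier, from RefSeq (GRCh38.p14, 19052 of 19064 probe sets with 1 symbol matched). A further 1043 had several symbols and 2108 were not listed. The 62 control probe sets were left out of the fit.

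Means of the 4 times were fitted to 8 arrays with limma 3.58.1 in R 4.3.3 (4 residual and 3.7 prior degrees of freedom). Tests were two-sided, adjusted by Benjamini-Hochberg over 22215 probe sets per comparison and called at an adjusted p under 0.05. The procedure was tested on simulated data. Alternatives covered array centring, quantile normalization, dim probe set filters, variance models, arrays fitted, 1 probe set per gene, replicate number as a block, and leaving out each array. Genes named were every member, up to 4 called genes of each list (2 uncalled where none was called), and the 5 nearest to MXI1 and to MYC, with exceptions marked. The members and lists were chosen with earlier results of these data known. Promoters came from RefSeq.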

Additional observations from a re-analysis of the deposited data

How the results depend on the processing

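The limits are those of 2 arrays per time, no normoxic time course, no detection calls and values normalized so that total messenger RNA is lost. MXI1 was called against 0 h at every time under all 17 alternatives. Of 1752 member results under alternatives, 45 lost a call, 33 gained one, and 0 changed sign where called in the main or the alternative fit. Some small changes called in neither fit did change sign, and these were not counted. Leaving out 1 array at a time, with the lone array assumed to vary like the other groups, gave 84 to 650 called probe sets at 6 h, 857 to 3949 at 12 h and 951 to 3516 at 24 h against 0 h, of which 1 to 3, 2 to 10 and 1 to 4 were members. Between hypoxic times it gave 19 to 452 for 24 h against 6 h, 0 to 1117 for 12 h against 6 h and 0 to 302 for 24 h against 12 h, with 0 to 0, 0 to 2 and 0 to 0 members.

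Without the dimmest 25% of probe sets, limma called 1051 at 6 h against 0 h, and 768, 236 and 185 for 24 h against 6 h, 12 h against 6 h and 24 h against 12 h, with 1, 1 and 1 member in the last 3. Without the dimmer 50% it called 2078, 1537, 1231 and 709 in these comparisons, with 5, 1, 3 and 2 members. At 24 h against 0 h it called 4494, of which 6 were members. This filter left about 50% of the 22215 probe sets and not all of the 18 members, so its counts are not shares of these totals. An intensity trend in the variance gave 1911, 1568, 1241 and 711, with 1, 3 and 2 members between hypoxic times in the same order. At 24 h against 0 h the trend gave 5 of 18 members, beside 4671 of all 22215 probe sets. With only the arrays compared, limma called 2294 at 12 h against 0 h, 171 at 24 h against 6 h, and 0 and 0 for 12 h against 6 h and 24 h against 12 h (4183 and 2291 at an unadjusted p under 0.05). With 1 probe set per gene it called 2202 at 12 h and 2123 at 24 h, since fewer were tested. Median-centred arrays gave 62 and quantile normalization 74 for 24 h against 12 h. The cause of these shifts was not tested except where stated.

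Deviations of replicates with the same number correlated at -0.135 to 0.084 between times, and the labels name no shared batch, so the numbers were not taken to pair the arrays. The replicate block gave 334 called at 6 h against 0 h, 129 at 24 h against 6 h and 0 and 0 in limma for 12 h against 6 h and 24 h against 12 h (4378 and 3404 at an unadjusted p under 0.05). Under it MYC at 6 h (adjusted p = 0.0753 in limma), MYCN at 12 h (0.0611) and MLX 213708_s_at at 12 h (0.0531) were not called, and MAX 210734_x_at at 12 h was (0.0497).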
